A study of Mus musculus with 4 samples.

Results

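The comparison described here set DNA recovered with an antibody against Foxp1 from luminal cells of the mouse mammary gland against the luminal input DNA, gene by gene. It used 2 of the 4 libraries of the study, the luminal Foxp1 ChIP and the luminal input, which carried no antibody. The other 2, the basal Foxp1 ChIP and the basal input, served only for scaling, for the filter on low counts and for values set side by side. All 4 came from untreated mammary epithelium of wild-type FVB/N females aged 10 to 12 weeks (the sample labels spell the strain FBV/N), with 1 library per group. The labels do not give the number of animals pooled, the antibody clone or how the cells were separated. A control antibody library was not analysed here. Of 24548 genes in the count table, the 23128 with at least 40 reads summed over the 4 libraries were compared, and 1420 fell under that limit.

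Foxp1 belongs to the forkhead transcription factors, which bind DNA through a winged-helix domain that favours the core letters TAAACA. Foxp proteins pair with each other through a leucine zipper and act mostly as repressors, recruiting histone deacetylase complexes, although activation has also been described. Luminal cells line the mammary ducts; some carry the oestrogen and progesterone receptors and others are progenitors of the milk-secreting alveoli, while basal cells form the contractile outer layer. In ChIP, DNA near the bound protein is recovered in excess of its share in input DNA, and input itself is not even, since open chromatin breaks and amplifies more readily. The label "luminal" could not be checked by the expression of marker genes, because every cell holds every gene in its DNA whether or not it uses it. Input reads of the 2 cell types are set side by side below for some marker lists, and were not used to test the label.

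Counted gene regions held 3163948 reads in luminal ChIP and 4201459 in luminal input, with 136 and 192 reads at the median tested gene. Because input was the deeper library, a gene with equal reads in both had a scaled ratio above 1. A gene was called higher or lower when the ratio of scaled reads reached 1.5-fold and its 99% interval, an exact Clopper-Pearson interval of the split of the 2 counts, excluded 1. Such intervals cover counting error only, no spread between animals can be had from 1 library per group, and therefore no p-value is given. Where in or around a gene the reads were counted is not stated, so every value belongs to a gene's counted region and not to a mapped binding site. In what follows a pair of read numbers gives luminal ChIP first and luminal input second, unless basal cells are named, and the value in brackets after it is the log2 ratio of scaled reads.

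Promoters of several called genes are given, chosen to show where a forkhead string lies when one is present. Most called-higher promoters hold none, since any such string was found in 24 of 256 (9.38%). Each sequence is 300 bases, 250 before to 50 after 1 annotated start, from RefSeq on GRCm38.p6, which is the assembly behind mm10, the build the reads were assigned to. Foxp1, on the minus strand at chr6:99520944-99521243, is shown because it is the gene of the immunoprecipitated factor. Klf4 at chr4:55532426-55532725 and Junb at chr8:84978699-84978998, both on the minus strand, are shown for the transcription factor groups described below, and Plet1 at chr9:50494275-50494574 on the plus strand as an epithelial surface gene. Capitals mark a forkhead string on either strand, which may be GTAAACA, the variant ATAAACA, or the variant GCAAACA.
Foxp1: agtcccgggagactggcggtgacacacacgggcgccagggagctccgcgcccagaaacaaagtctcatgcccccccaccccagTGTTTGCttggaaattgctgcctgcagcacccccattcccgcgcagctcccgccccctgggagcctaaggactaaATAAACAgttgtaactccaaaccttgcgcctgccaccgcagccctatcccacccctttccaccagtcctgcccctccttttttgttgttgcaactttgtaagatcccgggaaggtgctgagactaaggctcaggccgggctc
Klf4: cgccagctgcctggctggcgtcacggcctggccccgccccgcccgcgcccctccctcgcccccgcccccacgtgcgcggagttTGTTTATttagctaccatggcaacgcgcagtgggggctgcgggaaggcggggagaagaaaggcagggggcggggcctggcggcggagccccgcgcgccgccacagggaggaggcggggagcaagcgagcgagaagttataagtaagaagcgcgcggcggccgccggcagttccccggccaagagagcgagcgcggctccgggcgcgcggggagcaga
Junb: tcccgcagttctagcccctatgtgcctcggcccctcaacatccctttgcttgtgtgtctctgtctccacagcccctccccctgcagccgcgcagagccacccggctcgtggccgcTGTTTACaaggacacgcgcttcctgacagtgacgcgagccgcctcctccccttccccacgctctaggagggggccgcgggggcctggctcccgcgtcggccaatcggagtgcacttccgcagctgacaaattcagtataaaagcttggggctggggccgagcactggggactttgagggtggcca
Plet1: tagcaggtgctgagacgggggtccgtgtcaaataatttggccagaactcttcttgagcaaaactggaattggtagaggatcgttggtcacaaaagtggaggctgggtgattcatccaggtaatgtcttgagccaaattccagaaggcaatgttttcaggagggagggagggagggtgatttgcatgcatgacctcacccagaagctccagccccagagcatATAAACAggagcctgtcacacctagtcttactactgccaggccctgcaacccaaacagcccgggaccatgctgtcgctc

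Anp32b, the protein-coding gene with the highest lower bound, at chr4:46450676-46450975 on the plus strand, held none of these strings in its window. Its promoter is GC-rich, and capitals mark the GC box GGGCGG on either strand. The noncoding RNA gene Mannr, one of the 15 lowest named genes, is shown at chr3:29890767-29891066 on the plus strand with the same marking and holds no GC box. It is the GC-poorest of the lowest genes with a promoter entry and does not stand for them: Setd3 held 7 GC boxes, Tmem179b 3 and Pou2f2 2.
Anp32b: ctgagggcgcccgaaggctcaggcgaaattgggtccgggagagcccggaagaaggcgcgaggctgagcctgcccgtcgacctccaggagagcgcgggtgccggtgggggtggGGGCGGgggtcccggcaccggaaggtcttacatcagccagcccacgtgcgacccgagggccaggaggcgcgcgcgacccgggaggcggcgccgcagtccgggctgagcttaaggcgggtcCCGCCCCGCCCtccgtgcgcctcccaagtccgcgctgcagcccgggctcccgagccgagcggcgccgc
Mannr: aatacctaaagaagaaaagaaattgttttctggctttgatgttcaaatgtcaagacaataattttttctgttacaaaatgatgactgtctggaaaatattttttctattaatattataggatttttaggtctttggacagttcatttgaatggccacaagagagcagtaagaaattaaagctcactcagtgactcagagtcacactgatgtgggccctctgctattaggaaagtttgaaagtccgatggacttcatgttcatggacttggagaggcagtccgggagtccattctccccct

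Luminal ChIP differed from input at few genes, and the differences were small. In all, 347 genes were called higher, 1.5% of those tested, and 492 lower, 2.13%. At the median of the higher genes stood 254 reads in ChIP, 216 in input and a log2 ratio of 0.70, and 47 genes passed 2-fold upward. The median called-lower gene had 72 and 161 reads and a log2 ratio of -0.73, and 132 genes passed 2-fold downward. The middle 80% of all tested genes lay between -0.40 and 0.36. By the same rule luminal input over basal input, 2 libraries with no antibody, gave 107 genes higher (0.463%) and 164 lower (0.709%). The split of calls moved with the scaling. Of all calls, 41.4% were higher as reported, 30.7% with total counts in place of TMM factors (268 higher, 604 lower) and 65.5% with the median olfactory receptor gene set to 0 (576 and 303). Ratios of the 1108 olfactory receptor genes, which mammary cells are not known to use, had a variance 2.12 times that of counting alone. When the intervals were widened by that spread, 259 higher and 122 lower calls were left, so that the higher side made up 68.0%.

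**Figure D1:**
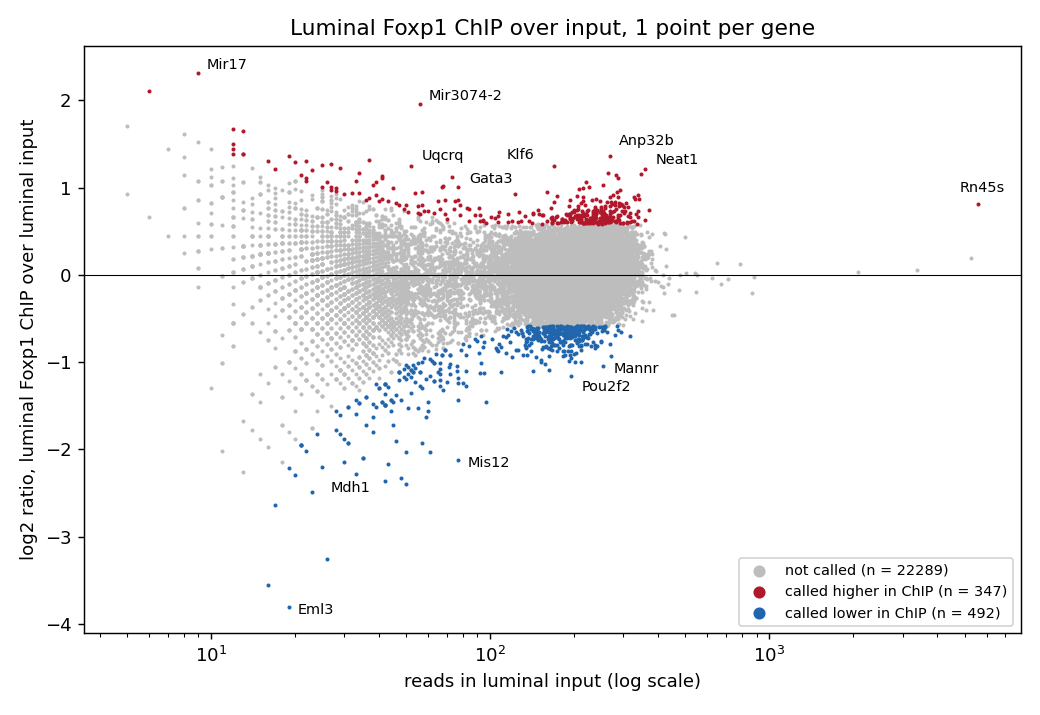
Log2 ratio of scaled reads (vertical) against reads in luminal input (horizontal, log scale), 1 point for each of 23128 genes, coloured by call. Higher calls (347) lie mostly between 150 and 400 input reads, whereas the lowest ratios belong to genes with few reads, such as Eml3 with 19.

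Depth differed between the directions. Among higher calls 24.2% had under 100 input reads, among lower calls 29.7%, and among all tested genes 17.0%. Genes with 300 to 399 input reads were called higher in 3.52% and lower in 0.136% of cases, against 0.683% and 2.76% of genes with 150 to 199. The part of depth in the calls was not tested.

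Among the 30 highest genes by the lower bound were several that act in the nucleus, grouped here after their values had been seen. Anp32b, an acidic nuclear protein that binds histones, had 507 reads in luminal ChIP and 268 in luminal input. Its log2 ratio was 1.36 (99% interval 1.08 to 1.65), the highest among protein-coding genes when ranked by the lower bound. It was the only one called of 18 Anp32 and histone chaperone genes (5.56%, against 1.5% of all genes). The list had a median of 0.14, and its lowest member was Ncl, the gene of nucleolin, with 12 and 36 reads (-1.14, not called). Mga, a Max-interacting repressor of the Myc network, had 460 and 283 reads and a ratio of 1.15 (0.86 to 1.43). Both calls held under each of the 12 alternatives, the 2-fold limit included. Ptma encodes prothymosin alpha, another acidic chromatin protein, and had 449 and 329 reads (0.89). Tardbp, the RNA-binding protein TDP-43, had 379 and 253 reads and a ratio of 1.03 (0.72 to 1.34). Scaf8, which binds the tail of RNA polymerase II, had 334 and 227 reads (1.0). Utp3, a protein of small-subunit ribosome assembly, had 228 and 160 reads (0.96). In basal cells all 6 of these genes were also called higher, from 0.84 for Tardbp to 1.27 for Anp32b.

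Noncoding RNA genes were in the top group too. Neat1, the scaffold RNA of paraspeckles, had 610 and 359 reads and a log2 ratio of 1.21 (0.96 to 1.46). Malat1, the neighbouring nuclear speckle RNA, had 457 and 370 reads (0.75), and Mascrna, the small RNA cut from its end, had 445 and 331 (0.87). The counted regions of Malat1 and Mascrna may overlap, so they are not separate observations. Rn45s, the ribosomal RNA repeat present in many copies, had 7203 and 5586 reads, the most of any gene, and a ratio of 0.81 with a narrow interval of 0.75 to 0.88. With basal input as background it was no longer called. Of 33 nuclear and imprinted long noncoding RNA genes, Neat1 and Malat1 were called higher (6.06%, against 1.5% of all genes). In the same list Hottip, transcribed beside the Hoxa genes, had 20 and 63 reads (-1.21), and the small nucleolar RNA host gene Snhg6 had 27 and 76 (-1.05). Both were called lower (6.06%, against 2.13% of all genes). The list median was -0.06, and neither lower call held with basal input as background or with widened intervals.

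**Figure D2:**
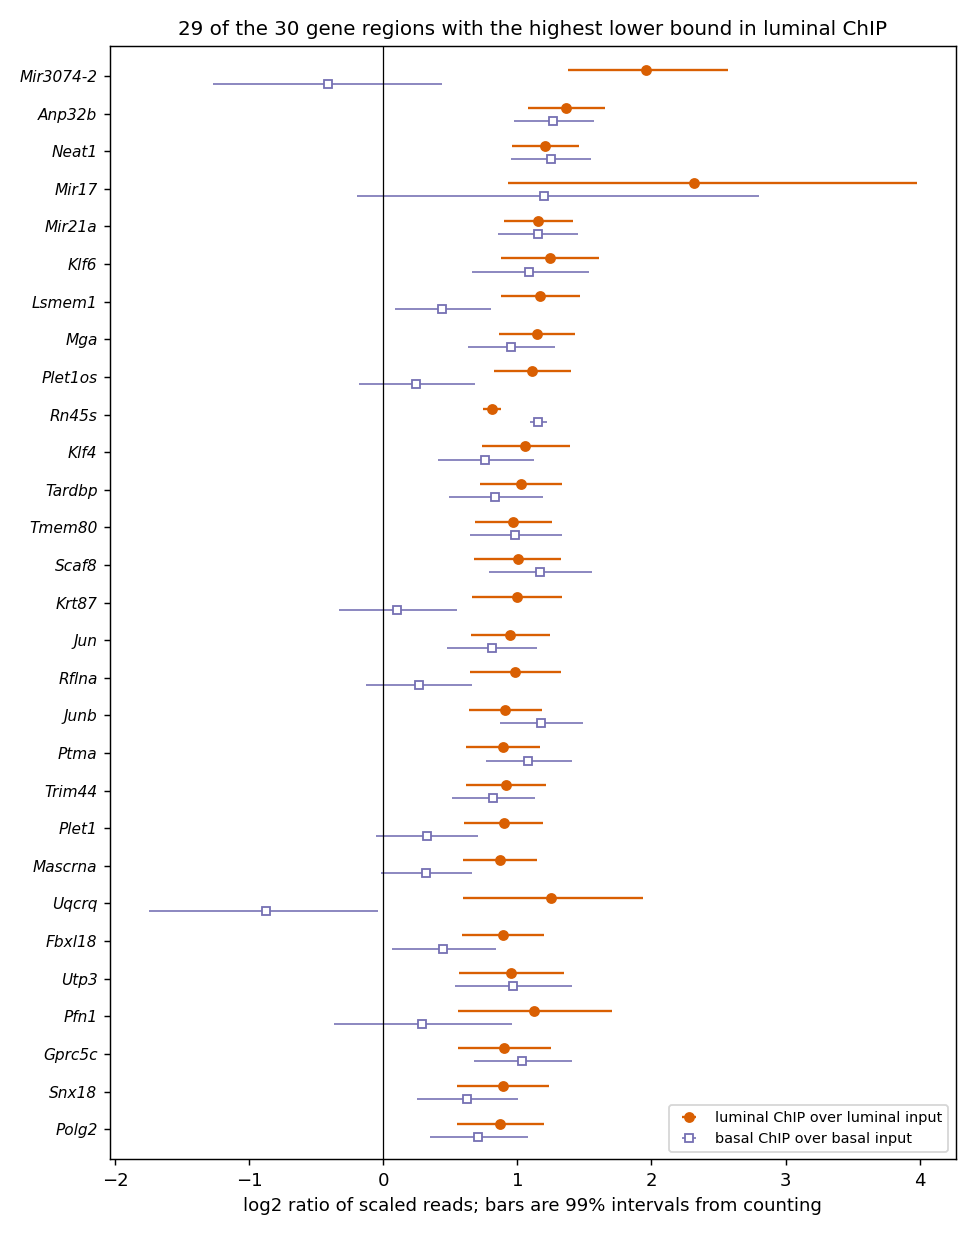
Log2 ratio of scaled reads with 99% counting intervals for 29 of the 30 genes with the highest lower bound in luminal cells (filled circles), with the basal ratio of the same gene beside it (open squares). All 29 luminal intervals lie above 0; the basal interval lies under 0 for Uqcrq only.

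Other genes among the 30 highest serve varied functions. Lsmem1, a membrane protein gene, had 438 and 265 reads (1.17, interval 0.88 to 1.46). Pfn1, the actin-binding profilin, had 117 and 73 reads (1.13, 0.56 to 1.70). Trim44, a deubiquitinase-like protein gene, had 383 and 276 reads (0.92). Snx18, a sorting nexin of membrane traffic, had 293 and 215 reads (0.89), and Polg2, the accessory subunit of the mitochondrial DNA polymerase, had 323 and 240 (0.87). Lsmem1 and Pfn1 were not called in basal cells (0.44 and 0.29), while Trim44, Snx18 and Polg2 were called higher there (0.82, 0.62 and 0.71).

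Foxp1 was itself called higher. The annotated gene lies on chromosome 6 from 98925342 to 99522746, and which part of it was counted is not stated. Its count was 315 reads in luminal ChIP and 249 in luminal input, a log2 ratio of 0.78 (0.46 to 1.10). Basal ChIP had 551 and basal input 203 reads (1.2). Of 42 forkhead genes tested, 3 were called higher, 7.14% against 1.5% of all genes. The others were Foxo3, a forkhead factor restrained by insulin signalling (351 and 283 reads, 0.76), and Foxc1, an epithelial and mesenchymal regulator (278 and 237 reads, 0.67). Foxl2, an ovarian factor, had only 9 and 34 reads and was called lower (-1.47), a call that was lost with widened intervals and with basal input as background. The related Foxp4 (177 and 222 reads, 0.12), Foxp2 (116 and 158, -0.00) and Foxp3 (89 and 142, -0.23), named outside the rule for named genes, were not called.

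AP-1 genes had the largest share of higher calls among the 46 lists. AP-1 factors are dimers of Jun, Fos and Atf proteins whose genes respond within minutes to growth factors or stress. Of 18 AP-1 family genes tested, 7 were called higher (38.9%) and 0 lower, against 1.5% and 2.13% of all genes. The list median was 0.46, against -0.00 over all tested genes. Jun had 403 reads in luminal ChIP against 284 in input, a log2 ratio of 0.95 (0.66 to 1.24). Junb had 467 and 338 reads and a ratio of 0.91 (0.64 to 1.18). Fos had 353 and 270 reads (0.83). Thus all 3 classic members lay well above counting error. Atf3, induced by stress, had 378 and 301 reads (0.77), Atf4, the translation-controlled stress factor, had 303 and 261 (0.66), and Fosl2 had 370 and 328 (0.62). Atf2 was the lowest member, with 155 and 277 reads (-0.39), and was not called. All 7 calls held with both inputs summed as background and with widened intervals. Those of Fosl2 and Fosb were lost with total counts and within promoter GC classes, where 5 of 16 were called higher. In basal cells 8 of the 18 were called higher, against 4.24% of all tested genes there, with a median of 0.57.

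Other immediate-early genes had fewer calls. Of 30 Egr, Nr4a, Ier and similar genes, 4 were called higher (13.3%) and 0 lower, against 1.5% and 2.13% of all genes. Their median was 0.27. Hes1, a Notch-responsive repressor, had 399 and 307 reads (0.82). Cyr61, a matricellular protein gene, had 369 and 303 reads (0.73). Ier2 had 367 and 313 reads (0.67), and the kinase gene Sik1 had 362 and 322 (0.61, lost with total counts). In basal cells 14 of these 30 were called higher, with a median of 0.56. Of all tested genes 4.24% were called higher in basal cells, against 1.5% in luminal cells. The difference between the cell types was not tested, since each has 1 library a side. Ppp1r15a, a phosphatase subunit of the stress response, was lowest in luminal cells with only 9 and 22 reads (-0.85, interval -2.57 to 0.65).

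Genes that damp MAP kinase signalling were also called higher in part. Of 16 feedback genes, 4 were called higher (25%) and 0 lower, against 1.5% and 2.13% of all genes. Their median was 0.39. Spred2, an inhibitor of Ras signalling, had 274 and 211 reads (0.82, lost with basal input as background). Dusp4 had 353 and 273 reads (0.82), Dusp6 had 394 and 339 (0.66) and Dusp5 had 271 and 234 (0.66, lost within GC classes). These 3 encode phosphatases that inactivate MAP kinases. Dusp10 was lowest, with 11 and 21 reads, and was not called (-0.49). Of the 22 EGF receptor family and ligand genes, which act upstream, 0 were called in either direction. Among all genes, where 1.5% were called higher and 2.13% lower, calls were rare too. Erbb3 was the highest of them with 231 and 243 reads (0.37), and Epgn the lowest with 157 and 271 (-0.34).

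Klf genes encode zinc finger factors that bind GC-rich promoter elements. Of 17 tested, 4 were called higher (23.5%) and 0 lower, against 1.5% and 2.13% of all genes. Their median was 0.32. Klf6 had 294 reads in luminal ChIP and 169 in luminal input, a log2 ratio of 1.24 (0.88 to 1.61). Klf4, a regulator of epithelial differentiation, had 337 and 220 reads and a ratio of 1.06 (0.73 to 1.39). Klf9, a hormone-responsive member, had 368 and 281 reads (0.83), and Klf10 had 321 and 275 (0.67). The 4 calls held with summed inputs and with widened intervals. Klf14 was lowest, with 158 and 282 reads (-0.39), and was not called.

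Genes of mRNA decay and splicing were called higher in part. Of 32 decay genes, 4 were called higher (12.5%) and 0 lower, against 1.5% and 2.13% of all genes. Zfp36, Zfp36l1 and Zfp36l2 encode proteins that bind AU-rich messages and bring them to the deadenylase. Zfp36l2 had 377 and 290 reads (0.82), Zfp36 had 380 and 296 (0.81) and Zfp36l1 had 369 and 290 (0.79). The 3 family members were thus above input by nearly the same ratio. Cnot6l, a deadenylase subunit, had 301 and 262 reads (0.65), a call that was lost with basal input as background and within promoter GC classes. Of 59 splicing factor and hnRNP genes, 4 were called higher (6.78%) and 1 lower (1.69%), against 1.5% and 2.13% of all genes. Besides Tardbp the higher ones were Hnrnpu, a nuclear matrix RNA-binding protein (326 and 247 reads, 0.85), Srsf3 (334 and 287, 0.66) and U2af2 (297 and 261, 0.63). The call of Srsf3 was lost within GC classes, and that of U2af2 with summed inputs and with basal input as background. Srsf5 had 13 and 43 reads and was called lower (-1.28), though not with widened intervals.

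Few genes of the luminal lineage lists were called. Gata3, the transcription factor that specifies luminal cells, had 114 reads in luminal ChIP against 77 in input. Its log2 ratio was 1.01 (0.45 to 1.58) and the call held under each of the 12 alternatives, the 2-fold limit included. It was the only one of 25 hormone-sensing luminal genes called (4.0%, against 1.5% of all genes called higher). That list had a median of 0.06, and its lowest member was Ramp3, a receptor-modifying protein gene (53 and 99 reads, -0.46). The hormone receptor genes Esr1 (215 and 269 reads, 0.12), Pgr (162 and 234, -0.09) and Prlr (210 and 257, 0.15), named as defining markers after their values had been seen, were not called. Of 30 luminal progenitor and alveolar genes, 0 were called in either direction, against 1.5% higher and 2.13% lower of all genes. Their median was 0.04. Sox10 was highest at 36 and 34 reads (0.53), and Elf5, the alveolar switch factor, was lowest at 122 and 232 (-0.48, interval -0.91 to -0.06). In basal cells 7 of these 30 were called higher, against 4.24% of all tested genes there, and the median was 0.32. Of 18 milk protein and secretion genes 0 were called, against the same shares of all genes, with a median of 0.07.

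Simple keratin genes, which mark luminal cells, had a median of 0.39 over 7 genes. Krt8 had 368 and 317 reads and was the 1 member called higher (0.66, interval 0.37 to 0.95). That was 14.3% of the list, against 1.5% of all genes. Krt18 (250 and 256 reads, 0.41), Krt7 (227 and 235, 0.39) and Krt19 (240 and 251, 0.38), also named as defining markers, lay above 0 without reaching 1.5-fold. Krt23 was lowest, with 115 and 208 reads (-0.41). Luminal input over basal input had a median of 0.26 in this list, so the input differed between cell types here as well, and its part in the result was not tested. Krt87, a hair-type keratin gene in the same region of the genome, had 317 and 216 reads (1.0). Basal keratin and myoepithelial genes stood at the all-gene level in luminal cells, with a median of -0.01 and 0 of 25 called. Krt5 was their lowest member at 99 and 185 reads (-0.46). In basal cells it had 383 and 188 reads (0.79, called higher). The basal median of the list was 0.50 with 6 called higher, against 4.24% of all tested genes in basal cells. Luminal input over basal input had a median of -0.17 in the basal keratin and myoepithelial list.

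Several epithelial adhesion and tight junction genes lay above input. Of 42 tested, 7 were called higher (16.7%) and 0 lower, against 1.5% and 2.13% of all genes. Their median was 0.23. Epcam, the epithelial adhesion molecule, had 296 and 238 reads (0.76). Cldn4 had 305 and 258 reads (0.69), and Cldn3 had 339 and 287 (0.68). Both encode claudins, the sealing proteins of tight junctions. Ctnnb1, the gene of beta-catenin, had 104 and 84 reads (0.75, interval 0.19 to 1.32) and was not called with widened intervals. Tjp3 was lowest with 17 and 33 reads (-0.51). With widened intervals 6 of the 7 were left, and with both inputs summed 8 were called. In luminal input these genes were also read more than in basal input, with a median log2 of 0.19.

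Plet1, which encodes a surface protein of epithelial progenitors, and the overlapping Plet1os were both among the 30 highest. Plet1os had 454 and 286 reads, a ratio of 1.11 (0.83 to 1.40). Plet1 had 393 and 287 reads (0.90). The genes overlap and counting by strand is not stated, so the pair may share reads and is not taken as separate observations. In basal cells neither was called (0.25 and 0.32).

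**Figure D3:**
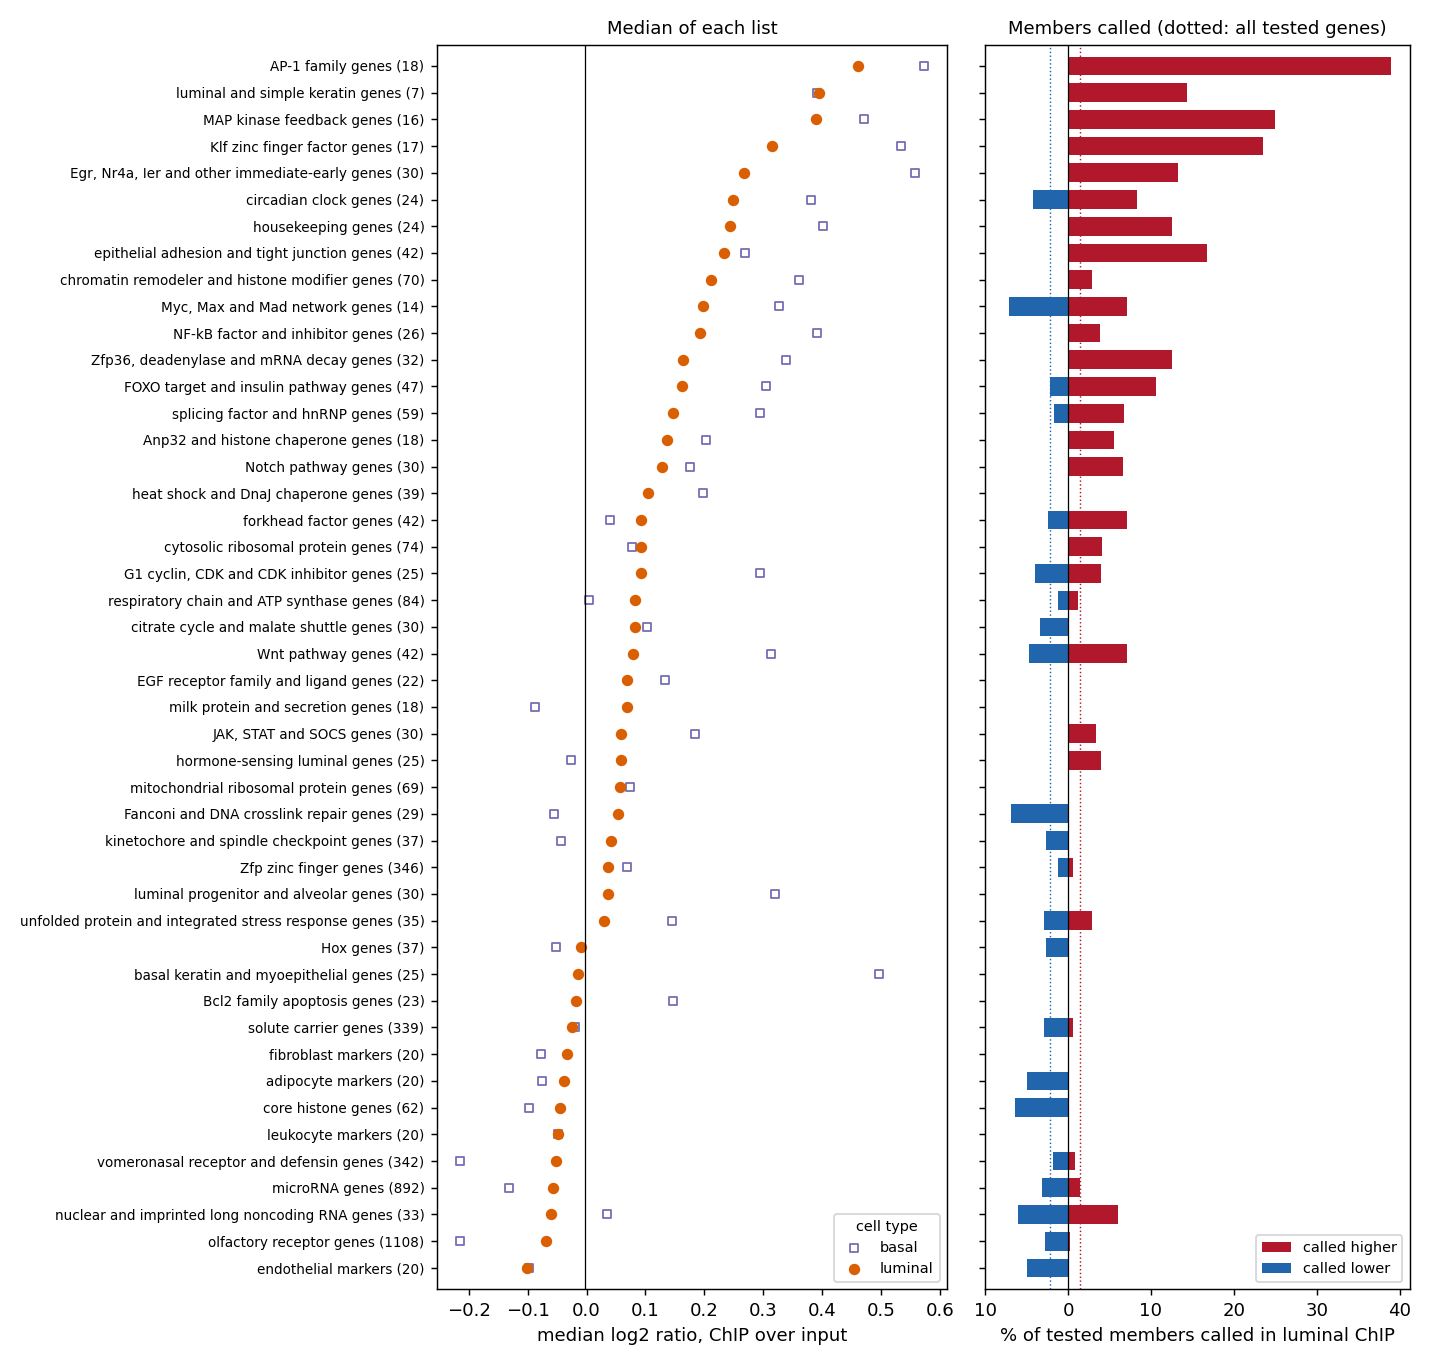
Gene lists in the order of their median log2 ratio in luminal cells (left, filled circles; open squares give the basal median) and the share of tested members called higher or lower in luminal ChIP (right; dotted lines give all tested genes). AP-1 genes are at the top with a median of 0.46 and 38.9% called higher, and endothelial markers at the bottom with -0.10.

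Signalling pathways held few calls each. Of 47 FOXO target and insulin pathway genes, 5 were called higher (10.6%) and 1 lower (2.13%), against 1.5% and 2.13% of all genes. Klf6, Klf4 and Foxo3 are described above and belong to other lists too. Trib1, a pseudokinase, had 363 and 302 reads (0.71). Cdkn1a, the cell cycle inhibitor p21, had 108 and 222 reads (-0.60) and its lower call was lost under 5 of the alternatives. Nfkbia, the inhibitor of NF-kB, had 394 and 313 reads (0.78) and was the 1 member called of 26. Socs1, a cytokine signalling inhibitor, had 223 and 170 reads (0.84) and was the 1 called of 30 JAK, STAT and SOCS genes. These single calls were 3.85% and 3.33% of the 2 lists, against 1.5% of all genes. Socs2, of the same family as Socs1, was the lowest member of its list (-0.725, not called).

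Of 30 Notch pathway genes, Hes1 and Nrarp (268 and 243 reads, 0.59) were called higher (6.67%, against 1.5% of all genes). Both respond to Notch. The call of Nrarp was lost with total counts and within GC classes, where 0 of 25 genes of this list were called higher and Hes1, with no promoter entry, was not among them. Of 42 Wnt pathway genes, 3 were called higher (7.14%) and 2 lower (4.76%), against 1.5% and 2.13% of all genes. The receptor Fzd8 had 252 and 205 reads (0.74), while the ligands Wnt10a (71 and 157 reads, -0.70) and Wnt3 (84 and 184, -0.69) were called lower. Neither lower call held with widened intervals. Of 24 circadian clock genes, 2 were called higher (8.33%) and 1 lower (4.17%), against 1.5% and 2.13% of all genes. The higher ones were Nfil3 (322 and 257 reads, 0.77) and Ciart (296 and 265, 0.60). Arntl2 (83 and 175, -0.63) was the lower one. The call of Ciart was lost with total counts and within GC classes, and that of Arntl2 under 5 of the alternatives. Of 23 Bcl2 family genes, 0 were called, against 1.5% higher and 2.13% lower of all genes. Mcl1, a survival factor, was highest with 354 and 327 reads (0.56).

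Chromatin remodeler and histone modifier genes had small positive ratios. Of 70 tested, 85.7% had a log2 ratio above 0, against 49.6% of all genes, and the median was 0.21. Of the 70, 2 were called higher (2.86%) and 0 lower, against 1.5% and 2.13% of all genes. They were Arid2, a subunit of a SWI/SNF complex (327 and 258 reads, 0.79), and Kat2b, a histone acetyltransferase (258 and 228, 0.62). Promoters of the list had a median GC content of 65.7%, against 56.3% over all promoters. Centred within promoter GC classes, the list median was 0.15 over 53 genes. Among housekeeping genes the median was 0.24, and 3 of 24 were called higher (12.5%), so a positive median was not limited to regulators. Eef1a1, a translation elongation factor, had 299 and 252 reads (0.69).

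Marker lists of other cell types, of 20 genes each, held 0 higher calls, against 1.5% of all tested genes. The luminal progenitor, milk protein and basal keratin lists held 0 as well, so this was not particular to other cell types. Fibroblast markers had a median of -0.03 with 0 of 20 called in either direction, and leukocyte markers -0.05 with 0 of 20. Endothelial markers had a median of -0.10, and Robo4 was the 1 gene called lower (78 and 170 reads, -0.68). Adipocyte markers had a median of -0.04, and Plin1 was called lower (89 and 183 reads, -0.60). Neither of these 2 lower calls held with widened intervals. Of the 1108 olfactory receptor genes 3 were called higher (0.271%) and 31 lower (2.80%), with a median of -0.07. Of 342 vomeronasal receptor and defensin genes 3 were called higher (0.877%) and 6 lower (1.75%), against 1.5% and 2.13% of all tested genes.

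Of 892 microRNA genes tested, 13 were called higher (1.46%) and 28 lower (3.14%), against 1.5% and 2.13% of all genes, with a median of -0.06. With widened intervals 8 were called higher and 7 lower. RefSeq held a mature sequence for 783 of them and for 31 of the 41 called. The mature forms of the 3 genes with the highest lower bound are given with the seed, bases 2 to 8, in capitals, since the seed sets which messages a microRNA pairs with. They lie at chr8:84208873-84208894 on the minus strand, chr14:115043684-115043706 on the plus strand and chr11:86584120-86584141 on the minus strand.
mmu-miR-3074-5p: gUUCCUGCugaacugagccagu
mmu-miR-17-5p: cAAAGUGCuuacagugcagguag
mmu-miR-21a-5p: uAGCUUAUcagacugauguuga

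The 3 seeds differ. Among the 12 higher genes with a mature sequence, 21 mature forms had 21 different seeds. This describes the called genes only, and seed families were not compared as groups. Mir3074-2 had 160 reads in luminal ChIP and 56 in luminal input, a log2 ratio of 1.96 (1.38 to 2.57). In basal cells it had 39 and 44 reads (-0.41, not called). It overlaps Mir24-2, which lies on the other strand and was listed at 0 in all 4 libraries, so reads there may have been counted for 1 of the pair. In the same cluster Mir23a had 11 and 7 reads and Mir27a 0 and 0.

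Mir17, the first member of a growth-promoting cluster, had 33 and 9 reads and a ratio of 2.32 (0.93 to 3.98). Basal cells had 27 and 10 reads (1.2, not called). Its cluster partners Mir18, Mir19a, Mir20a and Mir19b-1 were at 0 in every library, both inputs included, and Mir92-1 had 2 and 0 reads. How reads were counted where regions lie close together is not stated. The ratio of Mir17 is therefore not shown to be particular to it within the cluster. Mir21a, abundant in many epithelia, had 569 and 347 reads and a ratio of 1.16 (0.90 to 1.42). Basal cells had 582 and 222 reads (1.15, called higher). Of these genes Mir21a therefore rests on the most reads and had nearly the same ratio in both cell types.

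Muscle-type microRNAs went both ways. Mir1a-1 had 65 and 41 reads (1.11) and Mir133b had 126 and 107 (0.68), both called higher. Mir133a-2, a paralog of the latter, had 56 and 140 reads and was called lower (-0.88). Mir99a had 60 and 46 reads (0.83). The calls of Mir133b and Mir99a were lost with summed inputs, with basal input as background and with widened intervals, and that of Mir1a-1 with widened intervals. The lowest microRNA was Mir34b, a p53 target, with 6 and 29 reads (-1.83), a call lost with widened intervals. Mir1a-1, Mir133b, Mir133a-2 and Mir99a were named after their values had been seen.

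The lowest regions rested on few reads. Mis12, a kinetochore protein, had 13 reads in luminal ChIP and 77 in luminal input, a log2 ratio of -2.12 (-3.42 to -1.04). It was also called lower in basal cells, with 33 and 57 reads (-1.02). Ddit3, the stress-induced factor CHOP, had 7 and 50 reads (-2.39, interval -4.25 to -0.96). Basal cells had 34 and 18 reads there (0.68, not called). Mdh1, cytosolic malate dehydrogenase, had 6 and 42 reads (-2.36), and basal ChIP had 0 reads over 17 in basal input. So Mis12 and Mdh1 were low in both ChIP libraries, and Ddit3 in the luminal one.

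Fancd2 and Rev3l, genes of DNA crosslink repair, were both called lower. Fancd2 had 11 and 57 reads (-1.93), and Rev3l, the catalytic subunit of a translesion polymerase, had 9 and 50 (-2.03). They were 2 of 29 genes in that list (6.9%, against 2.13% of all genes called lower). The list median was 0.05, and 16 of the 29 had a log2 ratio above 0. In basal cells neither Fancd2 nor Rev3l was called (0.47 and 0.49). Cebpz had 7 and 48 reads (-2.33), and Trappc4, a vesicle tethering subunit, had 11 and 61 (-2.03). Setd3, the actin histidine methyltransferase, had 2 and 26 reads, and Eml3 had 1 and 19. With counts this small the ratio of Eml3 (-3.80) had an interval of -11.52 to -0.66.

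Better covered were Pou2f2, the Oct2 factor of B cells, with 64 and 195 reads (-1.16, interval -1.73 to -0.63), and Mannr, with 90 and 253 (-1.05, -1.52 to -0.59). These were the only 2 of the 15 lowest named genes with at least 100 input reads. All 15 calls held with both inputs summed, and those of Setd3, Eml3 and Aph1a were lost with widened intervals. With basal input as background those of Ddit3, Trappc4, Mdh1, Tmem179b and Aph1a were lost, so that 8 of the 15 held under every alternative apart from the 2-fold limit. Of the 62 core histone genes, which lie in clusters, 0 were called higher and 4 lower (6.45%), against 1.5% and 2.13% of all genes. Among the lower was Hist2h2ac (14 and 55 reads, -1.53), and 0 of the 4 lower calls held with widened intervals.

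**Figure D4:**
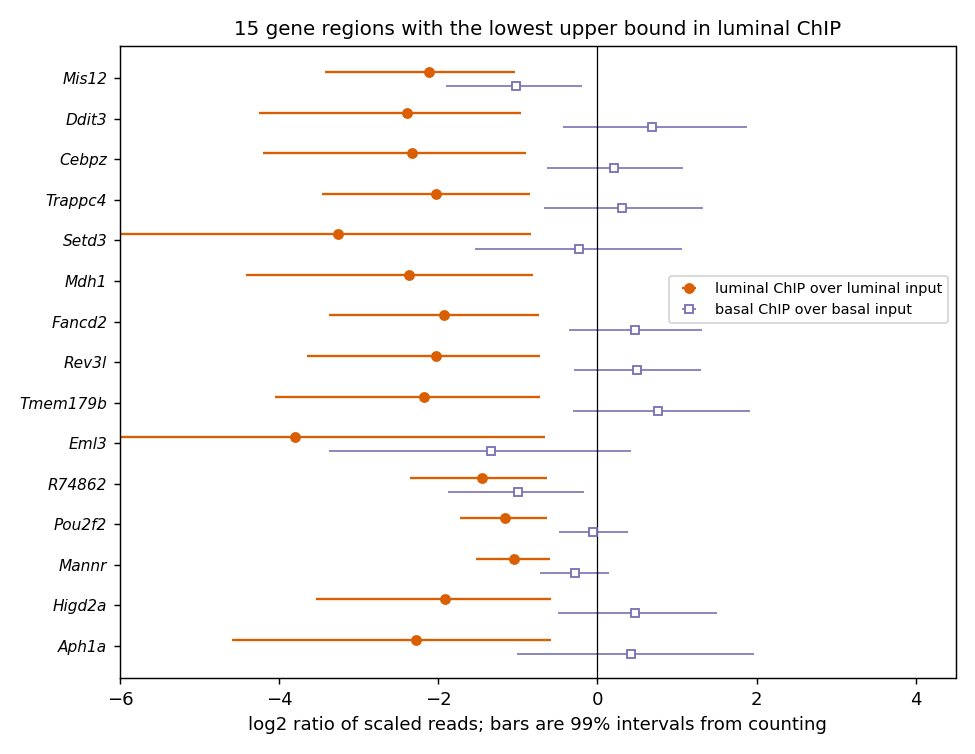
Log2 ratio of scaled reads with 99% counting intervals for the 15 named genes with the lowest upper bound in luminal cells (filled circles), with the basal ratio beside it (open squares; not drawn for Mdh1, which had 0 reads in basal ChIP). The axis is truncated at -6, so the intervals of Setd3 and Eml3 run off it; R74862, Mis12 and Mdh1 were also called lower in basal cells.

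Promoters of the called genes differed in base composition. A promoter sequence was found in RefSeq for 17432 tested genes, 256 of them called higher and 364 lower. Median GC content was 63.3% in the higher promoters, 53.0% in the lower and 56.3% in all. Over 5 classes of rising GC content, the share called higher was 0.501%, 0.864%, 0.998%, 2.24% and 2.77%, and the share called lower 2.64%, 2.68%, 2.58%, 1.40% and 1.12%. The median log2 ratio went from -0.07 in the first class to 0.09 in the last. In basal cells it went from -0.17 to 0.17, and luminal input over basal input from -0.13 to 0.05. Centred within these classes, 225 genes were called higher and 335 lower. The part of GC content in the calls beyond this was not tested.

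**Figure D5:**
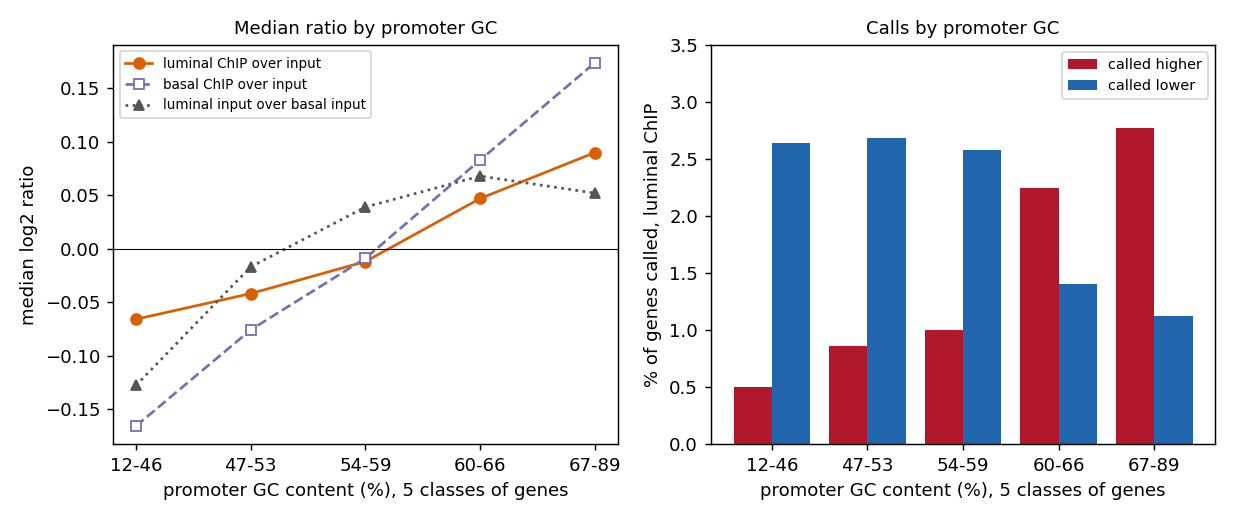
Left, median log2 ratio in 5 classes of genes by promoter GC content (%), for luminal ChIP over input, basal ChIP over input and luminal input over basal input. Right, the share of genes called higher or lower in luminal ChIP in the same classes, with higher calls going from 0.501% to 2.77% and lower calls from 2.64% to 1.12%.

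Forkhead strings as a set were about as frequent in the higher promoters as in all. Any of the 3 strings, on either strand, was present in 9.38% of the 256 higher promoters, 12.1% of the 364 lower ones and 10.9% of all 17432. For GTAAACA alone the shares were 4.30%, 3.02% and 3.03%, for the variant ATAAACA 3.52%, 4.12% and 4.03%, and for the variant GCAAACA 1.95%, 6.87% and 4.46%, in the same order. Promoters with any of the strings were poorer in GC (median 49.0%) than those without (57.3%). The GC box GGGCGG was present in 68.0% of the higher, 29.9% of the lower and 46.7% of all promoters, and the E-box CACGTG in 13.7%, 5.77% and 8.19%. The GATA string AGATAA showed the opposite order, with 4.30%, 15.4% and 9.83%. The AP-1 string TGANTCA was present in 6.64%, 7.14% and 7.38%. A string in the window is a description of the letters there and no evidence of a site in use, and the 300 bases cover only part of what was counted.

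Set beside the basal comparison, which shares no library with the luminal one, most higher genes pointed the same way. Of the 347 genes called higher in luminal cells, 271 (78.1%) had a basal log2 ratio above 0, against 48.4% of all tested genes. Of the 347, 108 (31.1%) were called higher in basal cells too and 8 lower; by the same rule basal ChIP over basal input gave 981 higher calls (4.24%) and 939 lower calls (4.06%). Of the 492 called lower, 330 (67.1%) had a basal ratio under 0, against 51.6% of all, but only 29 were called lower there and 2 higher. Of the 30 highest named genes 19 were called higher in basal cells.

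Some luminal calls stood apart from their basal values. For 76 of the 347 higher genes the luminal minus basal log2 difference was itself called by the rule of size and counting interval. For 4 it was called in the other direction. The 347 genes were picked for a high luminal ratio, and the difference uses the same luminal counts. More calls in the first direction were thus built in by the choice of genes. Mir3074-2 had the highest lower bound of this difference, at 2.36 (1.36 to 3.35). Uqcrq, a subunit of respiratory complex III, had 91 and 52 reads in luminal cells (1.25) against 34 and 53 in basal cells (-0.88). Krt87 had 170 and 134 reads in basal cells, and its difference was 0.89 (0.35 to 1.43). For Plet1os the difference was 0.86 (0.36 to 1.37). Among the 8 genes called higher in luminal and lower in basal cells the luminal input was lower than the basal input in each, from -0.66 to -0.28 after scaling, and the part of the inputs in these differences was not tested.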

How the data were processed

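Foxp1 ChIP and input DNA of luminal and basal mammary epithelial cells were sequenced as single reads of 75 to 85 bp, per the labels' protocols. The authors deposited raw read counts per gene, not normalized. Reads were counted with featureCounts on build mm10, per the submitters' processing notes. Not given in the sources used here were the aligner, tool versions, duplicate handling and counted region. The 24548 counts of each library were equal in the table of the series and in the file of the sample, and 0 columns were left unused. The genes and lists described were chosen with earlier results of these data known.

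Library sizes were adjusted by TMM (edgeR 4.0.16, R 4.3.3) over all 4 libraries, on genes with at least 40 counts in all. Log2 ratios with exact Clopper-Pearson 99% intervals, calls, promoter GC content and strings were computed in Python 3.11.15 with scipy 1.17.1 and pandas 2.3.3. Reads that are PCR copies are not independent molecules. The scripts were tested on simulated counts. The difference between cell types used the 4 counts with 0.5 added.

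Named genes were the 30 called higher with the highest lower bound and the 15 called lower with the lowest upper bound, Foxp1, the called members of each list (at most 6) and each named list's extremes, leaving out predicted and clone-named genes. A few genes this rule selects, which count in the totals, are left out of the text and figures. Foxp2 to Foxp4, Esr1, Pgr, Prlr, Krt7, Krt18, Krt19 and 4 muscle-type or other microRNAs and their cluster neighbours were added after their values had been seen. There were 36 lists by name, some sharing members, and 10 by symbol pattern. Gene IDs matched a RefSeq record of GRCm38.p6 for 23104 of 23128 tested genes. Of several promoters for a gene the most upstream was used. As alternatives, scaling was done by total counts, by size factors of DESeq2 1.42.0, by TMM over the luminal pair and by centring on olfactory receptor genes. Others were no filter, at least 100 counts, both inputs summed or basal input as background, 95% intervals, intervals widened by the receptor spread and a 2-fold limit, 11 in all. Centring within promoter GC classes was added after the data had been seen.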

Additional observations from a re-analysis of the deposited data

Results flagged for a closer look

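Uqcrq, the gene of a complex III subunit, was called in opposite directions in the 2 cell types: its luminal log2 ratio was 1.25 (91 reads over 52) and its basal log2 ratio -0.88 (34 over 53). The same held for Mir99a, at 0.83 in luminal cells (60 over 46) and -1.30 in basal cells (23 over 48), and for Mir133b, at 0.68 (126 over 107) and -1.01 (71 over 121). With 1 library in each group the differences between the cell types were not tested beyond counting error. In all 3 genes the luminal input was lower than the basal input after scaling, by log2 -0.47, -0.51 and -0.62 in that order.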

How the results depend on the processing

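Of the 138 named genes called, 138 kept their call with DESeq2 size factors, TMM over the luminal pair, no filter and 95% intervals, and 129 with total counts. Both inputs summed as background left 123, the receptor-centred scale 127, basal input as background 101 and widened intervals 101. Limits of 2-fold left 47, and centring within promoter GC classes 86 of the 100 with a promoter. No direction was reversed. Counts of genes called moved by over 1.5 times with receptor centring (576 higher and 303 lower) and with basal input as background (820 and 954). They also did so at 2-fold (47 and 132) and for lower calls with widened intervals (122). Within GC classes 225 of 17432 genes were called higher, against 256 of the same genes as reported. Apart from the stricter limits, the cause of these moves was not tested. List medians moved beyond the spread for 17 of 46 lists with basal input, 4 with summed inputs and 4 within GC classes. At the median depth of 136 and 192 reads, differences under 1.5-fold were often within counting error. No paired analysis was possible because each group has 1 library, and leaving out a replicate was not possible for the same reason.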

Other observations

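Some called genes were neighbours whose counted regions may share reads. Of genes called higher, 12 neighbouring pairs lay within 20000 bp, among them Fam71a and Atf3 on chromosome 1 (5479 bp apart, log2 0.75 and 0.77), Plekhg2 and Zfp36 on chromosome 7 (4103 bp apart, 0.81 and 0.81) and Leap2 and Uqcrq on chromosome 11 (4786 bp apart, 0.69 and 1.25). Of genes called lower there were 13 such pairs, among them Hoxa13 and Hottip on chromosome 6 (1895 bp apart, -1.01 and -1.21) and the globin genes Hbb-bh2 and Hbb-bh1 on chromosome 7 (904 bp apart, -0.86 and -1.17).

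By chromosome, higher calls made up from 0.873% of tested genes on chromosome 14 to 2.86% on chromosome 19, which carries Neat1 and Malat1. Lower calls ranged from 0.95% on chromosome 4 to 3.12% on the X chromosome.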
